A study of Mus musculus with 9 samples.

Results

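The 39 genes described here encode the enzymes of glycolysis, the pentose phosphate pathway and the entry of pyruvate into mitochondria, among 53077 genes listed in the tables. They were chosen by name from these pathways, at a time when earlier results of these data were known. All 39 names were listed for all 9 samples, some with a count of 0. A filter on low counts left 37 of them, of 13834 genes in all, for testing. *Ldhb* and *Pdk4* did not pass it.

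The cells were 5TGM1-Cas9, made from a mouse plasma cell tumour line (multiple myeloma) that had received the Cas9 nuclease by lentivirus, and 3 populations of them were sequenced. Control cells carried a gRNA against *Rosa26*, a locus that encodes no protein. The second population carried a gRNA against *Slc2a1*, the gene of the glucose transporter GLUT1, and the third carried that gRNA together with gRNAs against *Slc2a3*, *Slc2a5*, *Slc2a6* and *Slc2a8*, further members of the same family. Each population had 3 biological replicates and is named below by its gRNAs, the last as *Slc2a1/3/5/6/8* gRNA or the 5 gRNAs. All 9 libraries therefore came from cells with Cas9 and a lentiviral gRNA, and none from unedited parental cells. The edited cultures were mixtures and not clones, so they held cells with intact alleles. The line for the 5-gene group was first edited at the other 4 genes, sorted on its reporters and grown out before the *Slc2a1* gRNA was added, a history that the other groups did not share and that cannot be told apart from the added edits. Changes of RNA per cell and changes in the share of edited cells cannot be told apart in these bulk samples.

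Glycolysis splits glucose into a pair of three-carbon sugars and turns them into pyruvate. Its upper part spends ATP at hexokinase and phosphofructokinase, and its lower part, from triosephosphate isomerase on, returns ATP and NADH. Pyruvate is reduced to lactate by lactate dehydrogenase or oxidised by the mitochondrial pyruvate dehydrogenase complex, which its kinases switch off and its phosphatases switch on. The pentose phosphate pathway leaves glycolysis after hexokinase and supplies NADPH and ribose. Plasma cells and myeloma cells also use glucose to build the sugar chains of antibodies. Several glycolytic genes are known targets of hypoxia-inducible factor and Myc, whose core sequences are ACGTG and CACGTG in turn.

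The 250 bases before the RefSeq start sites were searched on both strands for these letters (GRCm38.p6, 38 of the 39 genes in the table). ACGTG occurred in 13 of these 38 genes (34.2%) and in 18.5% of the 27025 genes of the whole table. It occurred in 5 of the 9 members that were higher with the *Slc2a1* gRNA, namely *Hk2*, *Pgk1*, *Pgam1*, *Pkm* and *Ldha*. CACGTG, which contains ACGTG on both strands, occurred in 5 members (13.2%) against 6.86% of all genes, and of those 9 in *Ldha* alone. The letters GGGCGG, the core bound by Sp factors, occurred in 26 members (68.4%) against 35.4% of all genes, and in 6 of those 9 (66.7%). These are matches of letters in a fixed window and no test was made of them. The sequences of *Hk2*, *Pgk1*, *Pgam1* and *Ldha* are shown because these genes rose with the *Slc2a1* gRNA and hold a match, with capitals marking ACGTG or its reverse complement. *Pkm* is not shown because its match, 75 bases before the second of its listed starts, is in a window of which 140 bases are exonic in GENCODE. *Ldha* is shown before the first of its listed starts, and the window before the other holds no match. All are written 5′ to 3′ on the strand of the gene and end 1 base before the start site.
*Hk2*, chr6:82774455-82774704, minus strand: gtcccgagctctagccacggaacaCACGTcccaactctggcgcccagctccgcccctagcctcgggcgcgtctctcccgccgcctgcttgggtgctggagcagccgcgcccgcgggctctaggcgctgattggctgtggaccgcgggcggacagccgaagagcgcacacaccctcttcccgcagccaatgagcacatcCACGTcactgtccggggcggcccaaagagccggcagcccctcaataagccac
*Pgk1*, chrX:106186850-106187099, plus strand: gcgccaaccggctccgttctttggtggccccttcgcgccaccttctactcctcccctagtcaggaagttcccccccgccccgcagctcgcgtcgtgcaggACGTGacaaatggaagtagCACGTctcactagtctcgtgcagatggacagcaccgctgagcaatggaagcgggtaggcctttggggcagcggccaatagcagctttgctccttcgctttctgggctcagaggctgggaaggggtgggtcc
*Pgam1*, chr19:41911621-41911870, plus strand: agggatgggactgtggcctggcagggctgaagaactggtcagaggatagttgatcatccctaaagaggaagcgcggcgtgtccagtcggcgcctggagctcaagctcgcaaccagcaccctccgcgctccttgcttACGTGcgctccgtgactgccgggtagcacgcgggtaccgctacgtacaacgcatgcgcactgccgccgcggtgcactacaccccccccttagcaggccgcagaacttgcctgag
*Ldha*, chr7:46845554-46845803, plus strand: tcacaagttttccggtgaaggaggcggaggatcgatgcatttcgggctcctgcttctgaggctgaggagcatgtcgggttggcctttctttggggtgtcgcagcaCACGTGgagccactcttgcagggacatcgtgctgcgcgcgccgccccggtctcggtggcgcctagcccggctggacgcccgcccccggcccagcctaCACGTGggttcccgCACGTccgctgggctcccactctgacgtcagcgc
In *Ldha* the CACGTG matches begin 145 and 48 bases before the start and a further CACGT lies at 34 bases. The pair of matches in *Pgk1* begin at 150 and 131 bases, those in *Hk2* at 226 and 52, and the match in *Pgam1* at 114.

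Estimated counts summed to between 21838805 and 30537105 per library. Mitochondrial genes took 4.84 to 8.01% of them in control, 6.57 to 10.5% in *Slc2a1* gRNA and 4.91 to 11.1% in *Slc2a1/3/5/6/8* gRNA libraries. Of 7 plasma cell markers, 6 had group means of at least 1 TPM and *Tnfrsf17* did not. The 7 had a summed TPM (transcript abundance corrected for gene length and library size) of 650 to 1050 per library, of which *Xbp1* gave 384 to 568. *Jchain*, the joining chain of antibodies, was at 52.3 to 58.5 TPM in control, 14.2 to 26.1 with the *Slc2a1* gRNA and 69.2 to 97.5 with the 5 gRNAs. Markers of B cells, T cells, stroma and erythroid cells summed to at most 1.71 TPM per list. Of 5 macrophage markers, *Cd68*, which other cells also express, was at 56.8 to 97.2 TPM in control, 29.9 to 46.8 with the *Slc2a1* gRNA and 33.2 to 44.1 with the 5 gRNAs, and the other 4 had group means under 1 TPM. *Slc2a1* had 59.5, 26.9 and 32.9 TPM in control replicates 1, 2 and 3, and 37.1, 28.3 and 31.4 in the *Slc2a1* gRNA replicates, so its level does not separate these groups (adjusted p = 0.544). With the 5 gRNAs it was at 24.1, 31.5 and 19.1 TPM, with a log2 fold change of -0.66 (adjusted p = 0.029, or 0.101 without the replicate block). Of the other 4 targets in that group, *Slc2a8* (-1.22, adjusted p = 0.000309) and *Slc2a6* (-0.67, adjusted p = 0.0366, or 0.0712 without the block) were lower in 3 of 3 same-numbered pairs. *Slc2a3* was not (0.27, adjusted p = 0.259), and *Slc2a5* was higher in 3 of 3 pairs (2.65, adjusted p = 0.00478) at low counts, 6, 6 and 10 in control and 29, 36 and 51 with the 5 gRNAs. Frameshift edits need not lower a transcript, so these levels check the labels only in part.

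In control cells 34 of the 39 genes had a mean of at least 1 TPM. The lower trunk from *Tpi1* to *Ldha* was by far the most abundant, with a summed TPM of 6284 ± 1817 (SD, n = 3), against 1574 ± 449 for the upper steps and 545 ± 19 for the pentose phosphate enzymes. *Gapdh*, which makes the NADH of glycolysis, had the highest level of all members at 2506 ± 566 TPM. *Aldoa* (928 ± 333), the aldolase, *Eno1* (911 ± 346), the enolase, and *Pkm* (807 ± 197), the pyruvate kinase, came next. The means of these 3 lay within the spread between libraries, although *Pkm* was under both others in each control library. *Tpi1* (641 ± 244), *Ldha* (594 ± 204) and *Pgk1* (591 ± 202), which encodes phosphoglycerate kinase, also had means within the spread between libraries. *Tpi1* was above *Ldha* in each control library. Phosphoglycerate mutase *Pgam1* was lower at 167 ± 61.8 TPM, while *Bpgm*, which makes 2,3-bisphosphoglycerate, had 9.95 ± 0.875 TPM. *Eno3*, the muscle enolase, had 54.1 ± 0.827 TPM, and the neuronal *Eno2* lay just under 1 TPM at 0.923 ± 0.445. *Ldhb*, the other lactate dehydrogenase subunit, had at most 4 estimated counts in any library.

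At the upper steps, phosphoglucose isomerase *Gpi1* had 347 ± 79.4 TPM (SD, n = 3). *Pfkp*, the platelet form of phosphofructokinase, led its step at 202 ± 37.4 TPM, above the liver form *Pfkl* at 55.4 ± 8.5 and the muscle form *Pfkm* at 15.4 ± 1.13. Hexokinase was low for a trunk enzyme, with *Hk1* at 15.9 ± 1.82 TPM, *Hk2* at 8.18 ± 1.75 and *Hk3* at 0.161 ± 0.092. *Aldoc*, the brain aldolase, had 2.05 ± 0.859 TPM. The enzymes that set the level of fructose-2,6-bisphosphate, the activator of phosphofructokinase, were near the limit of 1 TPM, with *Pfkfb2* at 2.93 ± 0.294, *Pfkfb4* at 1.7 ± 0.262 and *Pfkfb3* at 0.679 ± 0.284. *Tigar*, which removes this activator, had 9.35 ± 1.17 TPM.

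Among the pentose phosphate enzymes, ribose-5-phosphate isomerase *Rpia* was the most abundant at 196 ± 14.7 TPM (SD, n = 3), followed by the lactonase *Pgls* at 119 ± 6.17 and transaldolase *Taldo1* at 115 ± 3.98, which did not differ beyond their spread. Transketolase *Tkt* had 63.8 ± 3.71 TPM. The NADPH-forming dehydrogenases *Pgd* (20.4 ± 1.42) and *G6pdx* (17.4 ± 1.41) and the epimerase *Rpe* (13.3 ± 2.56) were lower. Of the pyruvate dehydrogenase complex, *Pdhb* had 71 ± 1.64 TPM, *Pdha1* 50.4 ± 4.73 and *Dlat* 23.3 ± 1.53. Its kinases were *Pdk1* at 23.9 ± 8.26, *Pdk3* at 16.1 ± 1.02 and *Pdk2* at 4.55 ± 0.822 TPM, while *Pdk4* had no count in any of the 9 libraries. The phosphatase *Pdp1* had 2.38 ± 0.418 TPM.

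**Figure D1:**
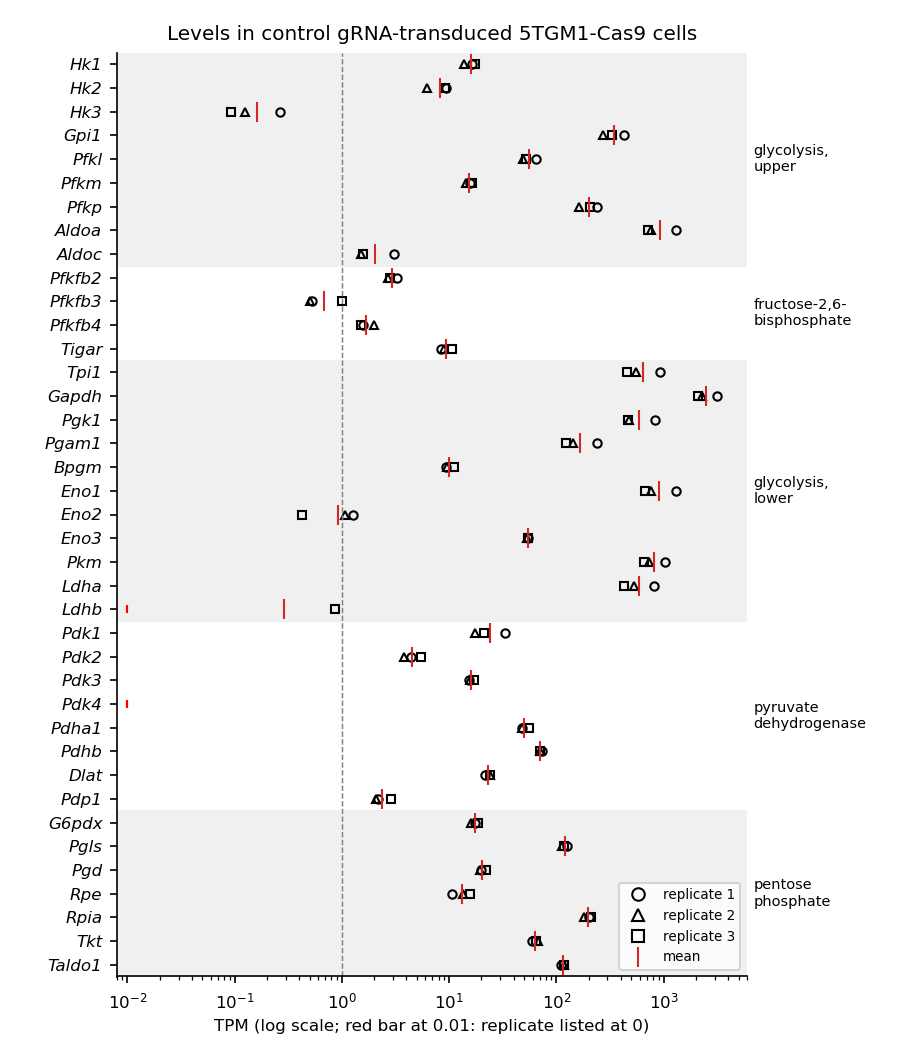
TPM of the 39 genes in the 3 control replicates on a log axis, grouped by part of the pathway, with the mean as a red bar and the limit of 1 TPM as a dashed line. *Gapdh* is highest at a mean of 2506 TPM, and replicate 1 (circles) is the highest control replicate for 17 of the 34 expressed genes.

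The control replicates were uneven in the trunk. *Aldoa*, *Tpi1*, *Gapdh*, *Pgk1*, *Pgam1*, *Eno1*, *Pkm* and *Ldha* were 1.44 to 1.83 times as high in control replicate 1 as in the mean of replicates 2 and 3. *Slc2a1* had a ratio of 1.99 and *Pdk1* 1.73, while the median over 11245 expressed genes was 0.938. Fold changes against control below include this library, except in ranges over fits that left out a sample. Counts of calls without it are given.

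The first comparison asked which of these genes changed when the *Slc2a1* gRNA was used. With this gRNA, 9 members were higher and 0 lower (edgeR quasi-likelihood test on estimated counts, replicate number as a block, Benjamini-Hochberg adjusted p under 0.05), where 2.25% of all genes tested were higher and 2.39% lower. DESeq2 called 11 higher and 2 lower, the latter *Bpgm* (adjusted p = 0.0466) and *Pdk2* (0.0482), and edgeR with total count normalization called 8 higher and *Bpgm* lower (0.0301), with *Pgk1* at 0.0527. At an unadjusted p under 0.05, 14 members were higher and 3 lower, where 11% of all genes were higher and 11% lower. The 9 were *Hk2*, *Pfkl*, *Tpi1*, *Gapdh*, *Pgk1*, *Pgam1*, *Eno1*, *Pkm* and *Ldha*, which form the trunk of glycolysis from the entry of glucose to lactate except for *Gpi1* and aldolase. In the lower part 7 of 10 tested members were higher, with a median log2 fold change of 0.74, against 0.09 over all members and 0.00 over all genes. All 9 were higher in TPM in 3 of 3 same-numbered pairs. The summed TPM of the lower part was 8358, 5523 and 4972 in the control replicates and 10937, 9633 and 9245 with the *Slc2a1* gRNA, groups that did not overlap. Here and below, overlap in TPM is a description of 3 against 3 samples. The share of all genes without overlap was not counted.

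Lactate dehydrogenase, phosphoglycerate mutase and hexokinase 2 had the highest fold changes of the 9, and they did not differ beyond their standard errors. *Ldha* (chr7:46841475-46855627) had 823, 529 and 431 TPM in control replicates 1, 2 and 3, and 1304, 1073 and 1092 TPM with the *Slc2a1* gRNA. Every *Slc2a1* gRNA replicate lay above every control, and the log2 fold change was 1.15 ± 0.16 (SE, edgeR adjusted p = 0.0062), or 2.22-fold. *Pgam1* (chr19:41911923-41918660), which moves the phosphate of phosphoglycerate, rose from 238, 142 and 122 to 373, 276 and 278 TPM, with no overlap and a log2 fold change of 1.07 ± 0.16 (SE, edgeR adjusted p = 0.00698).

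Hexokinase 2, the inducible form that phosphorylates glucose, rose by a similar amount. *Hk2* (chr6:82725025-82774454) had 9.28, 6.16 and 9.1 TPM in control and 16.2, 13.1 and 16.7 TPM with the *Slc2a1* gRNA. The groups did not overlap, and the log2 fold change was 1.06 ± 0.17 (SE, edgeR adjusted p = 0.0103). *Hk1*, the constitutive form, had 16.5, 13.9 and 17.4 TPM against 14, 13.5 and 16.5, with a log2 fold change of 0.07 (95% interval -0.21 to 0.34). Its sign turns to -0.03 under total count normalization.

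*Tpi1* (chr6:124810586-124814296), which interconverts the triose phosphates, went from 918, 554 and 453 to 1267, 1065 and 973 TPM. *Eno1* (chr4:150236721-150248879) went from 1307, 759 and 667 to 1751, 1506 and 1416 TPM. Neither pair of groups overlapped, and both genes had a log2 fold change of 0.97 (SE 0.17 and 0.18, edgeR adjusted p = 0.0144 and 0.0165). *Eno3* had 54.3, 53.2 and 54.8 TPM in control and 33.6, 35.3 and 47.5 with the *Slc2a1* gRNA, which did not overlap, but it did not pass the test at a log2 fold change of -0.33 (adjusted p = 0.207).

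*Gapdh* (chr6:125161715-125166467) went from 3152, 2266 and 2100 to 3956, 3808 and 3428 TPM. *Pkm* (chr9:59656368-59679375) went from 1031, 730 and 660 to 1350, 1107 and 1139 TPM. These groups did not overlap either, and both genes had a log2 fold change of 0.74 ± 0.15 (SE, edgeR adjusted p = 0.0204 and 0.0209).

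Of the 9, only *Pgk1* and *Pfkl* had groups that overlapped in TPM, since the lowest *Slc2a1* gRNA replicate lay under control replicate 1. *Pgk1* (chrX:106187100-106203699) had 824, 478 and 471 TPM in control and 898, 755 and 863 with the *Slc2a1* gRNA, a log2 fold change of 0.69 ± 0.16 (SE, edgeR adjusted p = 0.0306). *Pfkl* (chr10:77986947-78010083) had 65.1, 49 and 52.2 against 79.9, 64.5 and 69.7 TPM, and also a log2 fold change of 0.69 ± 0.13 (SE, edgeR adjusted p = 0.0178). On the scale of log2(TPM + 1) the difference of *Pfkl* was smaller, and the lowest value over all settings was 0.36. The effective length that Salmon gave *Pfkl*, by which counts are divided to make TPM, was 1.13 times as long in this group as in control. *Pfkp* and *Pfkm* had log2 fold changes of 0.05 and -0.20 and did not pass, with *Pfkp* at -0.05 under total count normalization.

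**Figure D2:**
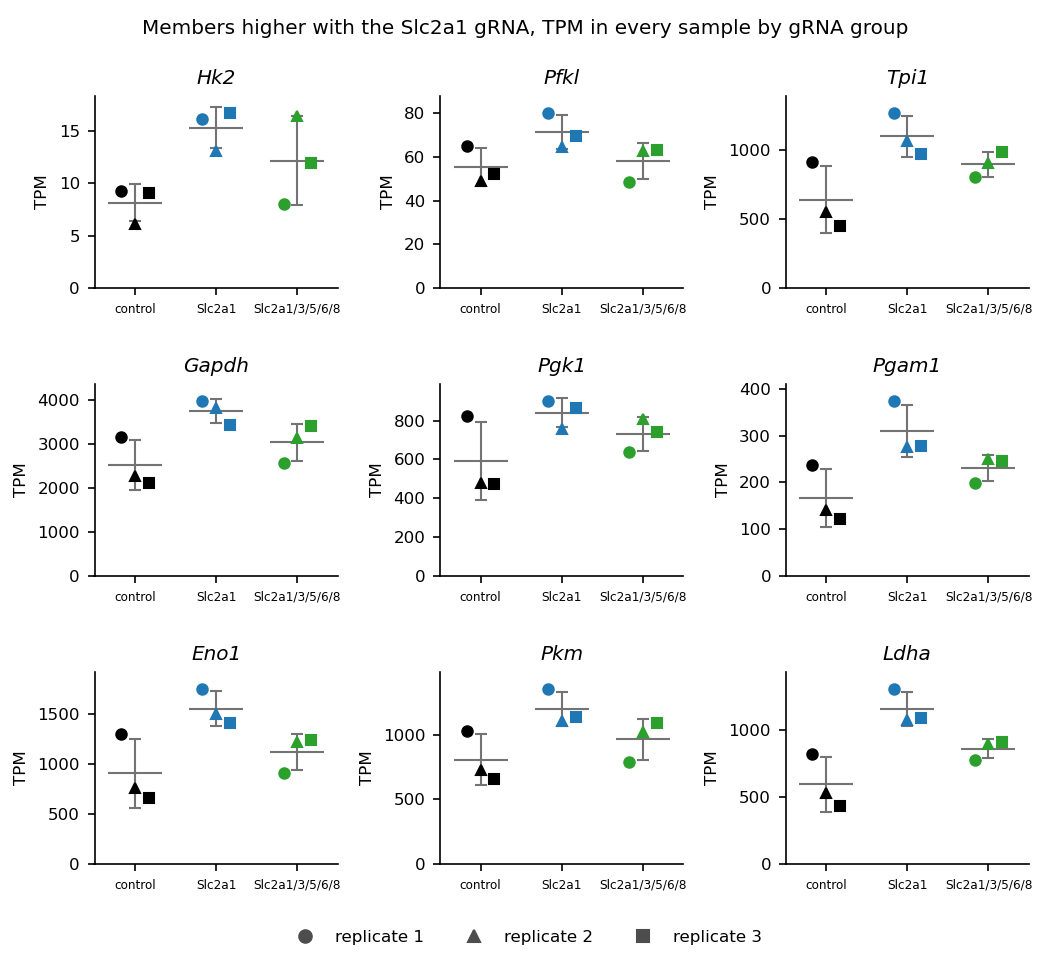
TPM in every sample of the 9 genes that were higher with the *Slc2a1* gRNA, with a symbol per replicate number, a bar at the group mean and whiskers of 1 SD (n = 3). The *Slc2a1* gRNA replicates (blue) lie above all 3 controls (black) in 7 panels, and replicate 1 of the *Slc2a1/3/5/6/8* gRNA group (green circles) is the lowest of its group in all 9. Neither count was made over all genes.

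Aldolase and the regulators of the pathway did not pass the test. *Aldoa* had 1311, 756 and 715 TPM in control and 1394, 1208 and 1188 with the *Slc2a1* gRNA (log2 fold change 0.63, adjusted p = 0.0545). *Aldoc* had 3.04, 1.52 and 1.58 TPM in control and 0.932, 0.87 and 0.795 with the *Slc2a1* gRNA, which did not overlap, with a log2 fold change of -0.69 (95% interval -1.49 to 0.10, adjusted p = 0.293). *Bpgm* was at -0.50 (adjusted p = 0.0653) and *Pdk2*, a kinase that inhibits pyruvate dehydrogenase, at -0.68 (adjusted p = 0.0747), each lower in 3 of 3 pairs without overlap. *Pgd* was at 0.55 (adjusted p = 0.0747), and none of the 7 pentose phosphate enzymes, 7 tested pyruvate dehydrogenase members or 4 genes of fructose-2,6-bisphosphate passed. The log2 fold changes of the other regulators were 0.38 for *Pdk1* (adjusted p = 0.117), -0.07 for *Pdk3*, -0.04 for *Pdp1*, -0.10 for *Pfkfb2*, 0.10 for *Pfkfb3*, -0.42 for *Pfkfb4* and 0.17 for *Tigar*, and those of *Pdk3*, *Pdp1*, *Pfkfb2*, *Pfkfb3* and *Tigar* changed sign in at least 1 other fit. The summed TPM of the pentose phosphate enzymes was 549 ± 35.4 (SD, n = 3) against 545 ± 19 in control.

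The direction of all 9 held in each of 9 other settings and each of 9 fits that left out a sample, but the calls did not. Without the replicate block 6 passed, and *Pfkl* (adjusted p = 0.0502), *Tpi1* (0.0515) and *Pgk1* (0.0931) did not, while calls over all genes went from 642 to 534. The count of members called was 0 without control replicate 2 or without *Slc2a1* gRNA replicate 2, 1 without control replicate 3, 3 without *Slc2a1* gRNA replicate 1, 10 without control replicate 1 and 14 without *Slc2a1/3/5/6/8* gRNA replicate 1. Calls over all genes moved too, to 11, 24, 45, 64, 72 and 1291 in these left-out-sample fits in the same order. With limma on log2(TPM + 1) no member passed, 12 had an unadjusted p under 0.05, and 4 genes of the whole table passed. Mitochondrial share, *Jchain* and *Cd68* moved with these groups as given above, and their part in the result was not tested.

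The second comparison asked the same of cells with gRNAs against all 5 transporters. In this group 6 members were higher, namely *Hk2*, *Pfkfb3*, *Tpi1*, *Pgam1*, *Ldha* and *Pdp1*, and *Pfkfb4* and *Bpgm* were lower (the same edgeR test). Of all genes tested, 8.49% were higher and 7.44% lower in this comparison, and the members' 6 and 2 of 37 stand beside that larger background. The median log2 fold change was 0.07 over all members and 0.36 over the lower part of glycolysis, against 0.01 over all genes. The 3 control libraries are the same as in the first comparison. At an unadjusted p under 0.05, 13 members were higher and 7 lower, where 16.7% of all genes were higher and 14.7% lower.

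The trunk enzymes that passed with the replicate block were *Hk2*, *Tpi1*, *Pgam1* and *Ldha*. Same-numbered samples did not deviate together in all 3 pairs of this comparison, so the numbers are not shown to pair them, and without the block *Hk2* passed while *Tpi1* (adjusted p = 0.159), *Pgam1* (0.165) and *Ldha* (0.101) did not. *Hk2* had 8.01, 16.5 and 12 TPM in replicates 1, 2 and 3, with a log2 fold change of 0.60 ± 0.17 (SE, edgeR adjusted p = 0.0352). *Ldha* had 779, 894 and 909 TPM, with a log2 fold change of 0.63 ± 0.16 (SE, edgeR adjusted p = 0.019). For both, replicate 1 lay under control replicate 1 and replicates 2 and 3 lay above all controls. *Tpi1* had 805, 905 and 984 TPM (log2 fold change 0.60 ± 0.17, edgeR adjusted p = 0.033), and *Pgam1* had 198, 249 and 246 TPM (0.57 ± 0.16, adjusted p = 0.0281). *Pgam1* showed the same order, while *Tpi1* replicate 2 also lay under control replicate 1. All 4 genes were higher in 2 of 3 pairs. *Gapdh* (0.34), *Pgk1* (0.39), *Eno1* (0.40) and *Pkm* (0.33) did not pass the test. With a sample left out they ranged from 0.19 to 0.50, 0.23 to 0.64, 0.20 to 0.68 and 0.16 to 0.49 in turn. *Pgk1* and *Eno1* passed in 2 of these 9 fits each, *Pkm* in 1 and *Gapdh* in 0. The summed TPM of the lower part was 6726, 8274 and 8654, which overlapped the controls.

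*Bpgm* had the smallest adjusted p of the members in this comparison. *Bpgm* (chr6:34476207-34505613), which makes 2,3-bisphosphoglycerate, had 9.34, 9.57 and 11 TPM in control and 5.5, 5.65 and 7.32 with the 5 gRNAs. It was lower in 3 of 3 pairs with no overlap, and the log2 fold change was -0.68 ± 0.14 (SE, edgeR adjusted p = 0.00899). *Pdp1* (chr4:11958184-11966452), the phosphatase that switches pyruvate dehydrogenase on, had 2.17, 2.1 and 2.86 TPM in control and 2.58, 3.7 and 4.08 with the 5 gRNAs. It was higher in 3 of 3 pairs although the groups overlapped, with a log2 fold change of 0.56 ± 0.18 (SE, edgeR adjusted p = 0.0495). *Pdp1* passed in only 1 of 9 other settings (adjusted p 0.0486 to 0.239) and in 1 of 9 fits that left out a sample (0.0424 to 0.211).

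Of the kinase-phosphatases of fructose-2,6-bisphosphate, *Pfkfb3* passed as higher and *Pfkfb4* as lower, both at low levels. *Pfkfb3* did not pass without the replicate block (adjusted p = 0.0639) and passed in 3 of 9 fits that left out a sample, and *Pfkfb4* passed in 2 of these 9. *Pfkfb3* (chr2:11471433-11554077), the form with the strongest kinase activity, had 0.523, 0.507 and 1.01 TPM in control and 0.869, 0.998 and 1.25 with the 5 gRNAs. These came from 55, 68 and 121 against 103, 109 and 164 estimated counts, and the log2 fold change was 0.93 ± 0.26 (SE, edgeR adjusted p = 0.0282). *Pfkfb4* (chr9:108991778-109032228) had 140, 139 and 161 estimated counts in control and 61, 64 and 92 with the 5 gRNAs, groups that did not overlap, with a log2 fold change of -0.77 ± 0.22 (SE, edgeR adjusted p = 0.0362). In TPM, however, it was at 1.59, 2 and 1.5 against 0.778, 1.91 and 1.54, which overlapped, with a higher value in 1 of 3 pairs. Its effective length in this group was 0.73 times that in control, and the smallest difference over all settings was -0.19. *Tigar* (0.38, adjusted p = 0.06) and *Pfkfb2* (-0.26, adjusted p = 0.379) did not pass.

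Other members of these steps were measured in the same fit. *Hk1* had 8.69, 15.8 and 13.7 TPM with the 5 gRNAs, which overlapped the controls, and a log2 fold change of -0.28 (95% interval -0.55 to -0.01, adjusted p = 0.151). *Pfkl* (0.28), *Pfkp* (-0.26) and *Pfkm* (-0.24) did not pass either. With a sample left out these ranged from 0.18 to 0.46, -0.36 to -0.12 and -0.30 to -0.13 in turn, and *Pfkl* passed in 1 of 9 fits. The log2 fold change was 0.40 for *Pdk1* (adjusted p = 0.057), -0.33 for *Pdk2* and 0.00 for *Pdk3*, none past the threshold. *Aldoc* had 0.825, 1.12 and 0.907 TPM, under all 3 controls, and the lowest log2 fold change of the members at -1.10, but with an interval of -1.90 to -0.30 it did not pass (adjusted p = 0.0609), while *Aldoa* was at 0.39. No pentose phosphate enzyme passed, and *Taldo1* had the smallest p of the 7 (log2 fold change -0.28, adjusted p = 0.127). *Eno3* was lower in TPM in 3 of 3 pairs without overlap (-0.35, adjusted p = 0.128).

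**Figure D3:**
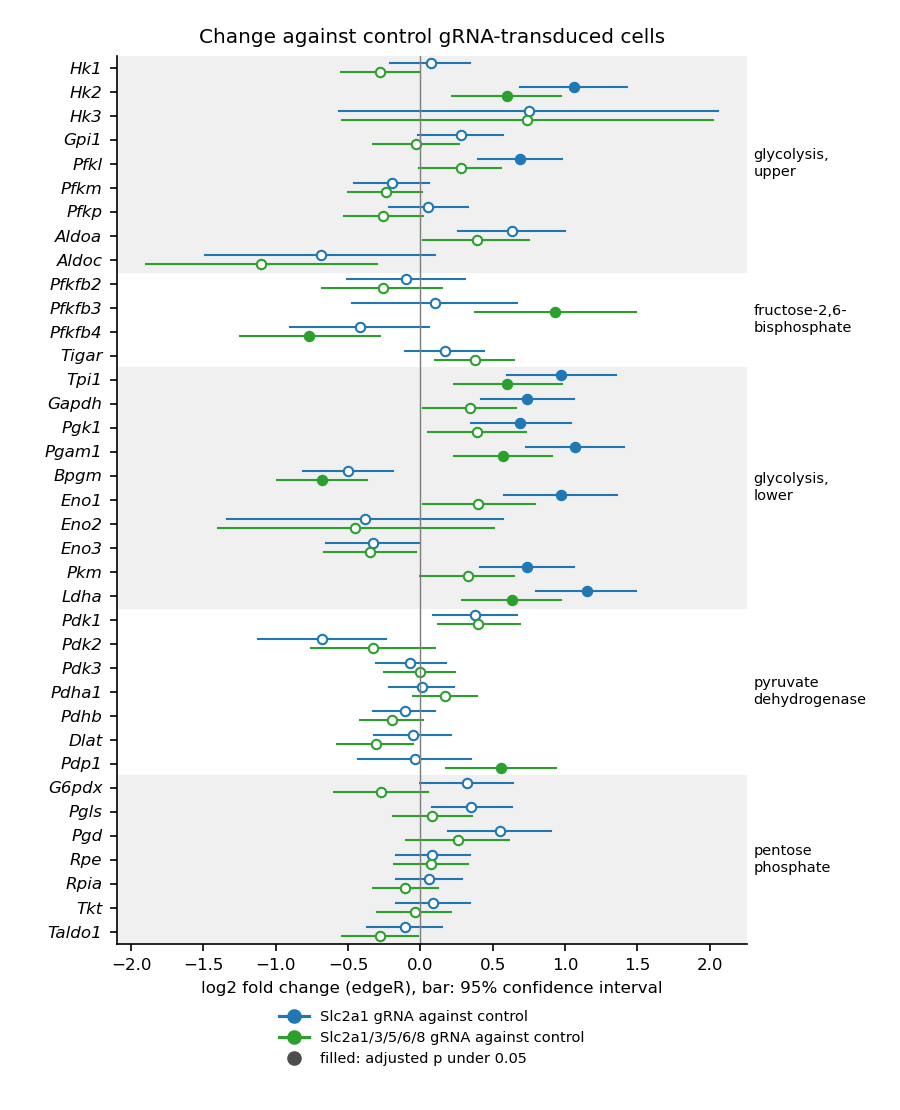
Log2 fold change against control of the 37 tested genes with 95% confidence intervals from edgeR, with the *Slc2a1* gRNA in blue and the 5 gRNAs in green, which share the control libraries. Filled points passed the threshold, 9 in blue and 8 in green, and the lower glycolysis points lie to the right of 0 in both groups except *Bpgm*, *Eno2* and *Eno3*.

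Several calls of this comparison rested on the block or on single libraries. That of *Bpgm* did so less, since it passed without the block (edgeR adjusted p = 0.00824). It also passed in 7 of 9 fits that left out a sample and in 6 of 9 other settings. Without the replicate block 3 members passed, *Hk2* higher and *Pfkfb4* and *Bpgm* lower, where 1885 of all genes passed against 2204 with it, and the adjusted p was 0.0514 for *Pdp1*. In replicate 1 of this group, 33 of the 34 expressed members were at their lowest of the 3 replicates, and it had the highest mitochondrial share, 11.1%. That order was not counted over all genes, so it is not shown to be particular to these members. Without replicate 1 of this group 13 members passed, 10 higher and 3 lower. The count was 1 without control replicate 2, control replicate 3 or *Slc2a1/3/5/6/8* gRNA replicate 3, 4 without *Slc2a1/3/5/6/8* gRNA replicate 2, 5 without *Slc2a1* gRNA replicate 2 and 8, all higher, without control replicate 1. Over all genes, 2406 passed without *Slc2a1/3/5/6/8* gRNA replicate 1, against 994, 736, 877, 1877, 1836 and 631 in the other fits in the order given. The log2 fold change of *Hk2* was 0.31 without *Slc2a1/3/5/6/8* gRNA replicate 2, and that of *Tpi1* was 0.39 without control replicate 3.

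**Figure D4:**
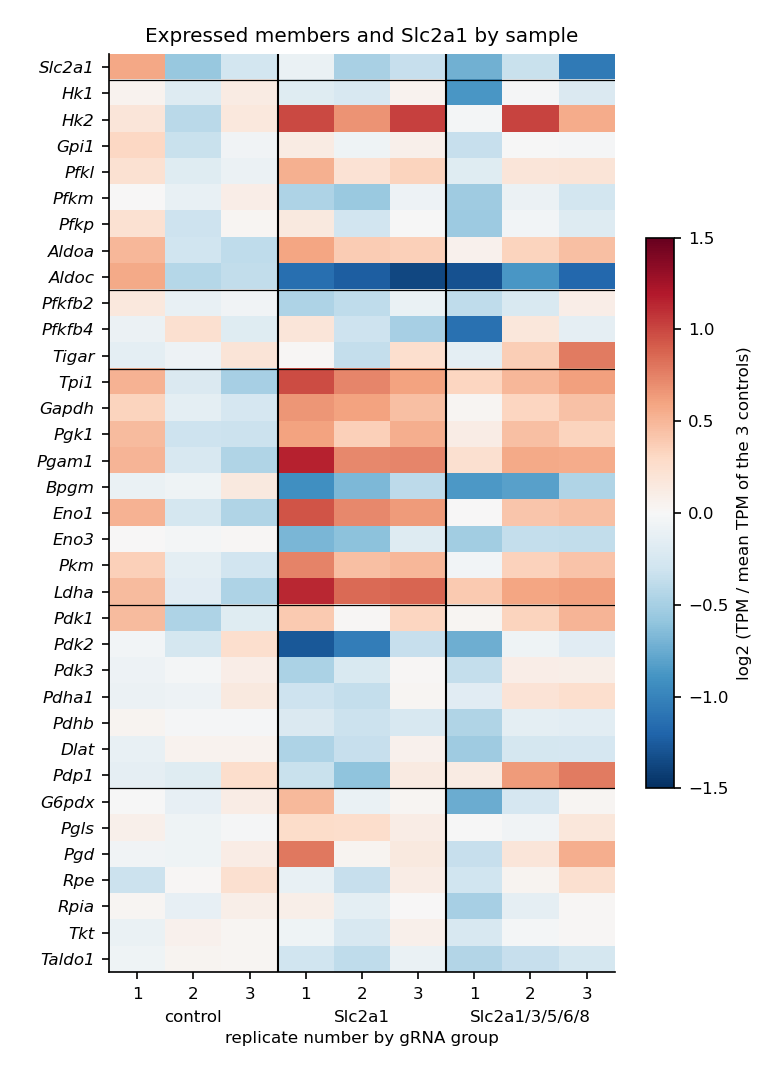
Log2 of TPM over the mean TPM of the 3 controls for *Slc2a1* and the 34 expressed members in each of the 9 samples, red for higher and blue for lower, with lines between parts of the pathway. The lower glycolysis rows are red in all *Slc2a1* gRNA columns and in control replicate 1, except *Bpgm* and *Eno3*, and the first *Slc2a1/3/5/6/8* gRNA column holds the lowest value of its group for 33 of the 34 members. The same order was not counted over all genes.

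The edited groups were compared with each other to ask whether the added edits changed these genes beyond the *Slc2a1* gRNA. No member passed in edgeR, where 1.36% of all genes tested were higher and 0.947% lower with the 5 gRNAs. At an unadjusted p under 0.05, 2 members were higher and 11 lower, where 10.4% of all genes were higher and 8.68% lower. DESeq2 called 7 members, all lower, where it called 3.15% of 12095 genes higher and 2.63% lower. The log2 difference was negative for 30 of 37 members and for all 10 tested members of lower glycolysis. Over all genes tested it was negative for 6852 of 13834. It was -0.52 for *Ldha* (95% interval -0.86 to -0.18), -0.50 for *Pgam1* (-0.84 to -0.16) and -0.56 for *Eno1* (-0.95 to -0.18). In TPM these 3 genes, *Gapdh*, *Pkm* and *Pfkl* were lower with the 5 gRNAs, without overlap between the groups. How many of all genes were without overlap here was not counted, so this adds nothing to the test. The interval of *Hk2* ran from -0.83 to -0.09 around -0.46 (adjusted p = 0.165). With a sample left out its difference ranged from -0.76 to -0.27 and passed in 1 of 9 fits. *G6pdx*, the dehydrogenase that commits glucose to the pentose phosphate pathway, had the smallest p of the members. It had 24.3, 16.3 and 17.7 TPM with the *Slc2a1* gRNA and 10.4, 14.6 and 17.7 with the 5 gRNAs, a log2 difference of -0.60 (95% interval -0.92 to -0.27, adjusted p = 0.0606). The 2 with an unadjusted p under 0.05 and a positive difference were *Pfkfb3* at 0.83 (0.27 to 1.39, adjusted p = 0.107) and *Pdp1* at 0.60 (0.22 to 0.99, adjusted p = 0.0962). These intervals still allow differences of up to nearly 2-fold for the trunk, so a missed threshold does not show that the groups were alike.

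The makeup of several steps by isozyme differed between control and edited samples. Hexokinase 2 made up 35.7, 30.6 and 34.3% of hexokinase TPM in the control replicates. It made up 53.5, 48.8 and 49.8% with the *Slc2a1* gRNA and 47.2, 50.6 and 46.3% with the 5 gRNAs, so that all 6 edited samples lay above all 3 controls. *Hk1* made up nearly all of the rest, and its own log2 fold changes of 0.07 and -0.28 enter these shares beside those of *Hk2*. Because a share compares genes within a library, it does not depend on the scaling between libraries.

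The share of *Pfkl* in phosphofructokinase was also higher in all 6 edited samples, by less. It was 20.5, 21.7 and 19% in control, 25.4, 26.9 and 24.5% with the *Slc2a1* gRNA and 24.6, 22.9 and 25.1% with the 5 gRNAs. *Pfkp* kept 68.8 to 75% of this step in every sample. *Eno3* made up 3.99, 6.53 and 7.58% of enolase in control, 1.88, 2.29 and 3.24% with the *Slc2a1* gRNA and 3.96, 3.34 and 3.27% with the 5 gRNAs. All 6 edited samples lay under all 3 controls, although the margin was narrow for replicate 1 of each of control and the 5-gene group. *Aldoc* made up a small part of aldolase, 0.201 to 0.231% in control and 0.0668 to 0.0953% in the edited samples. Among the pyruvate dehydrogenase kinases *Pdk1* had 62.8, 47.1 and 48.2% in control, 70, 60.3 and 60.2% with the *Slc2a1* gRNA and 61.5, 58.4 and 61.7% with the 5 gRNAs, so that control replicate 1 lay among the edited samples. *Ldha* made up at least 99.8% of lactate dehydrogenase in every sample. These shares are given as a description, with no test.

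**Figure D5:**
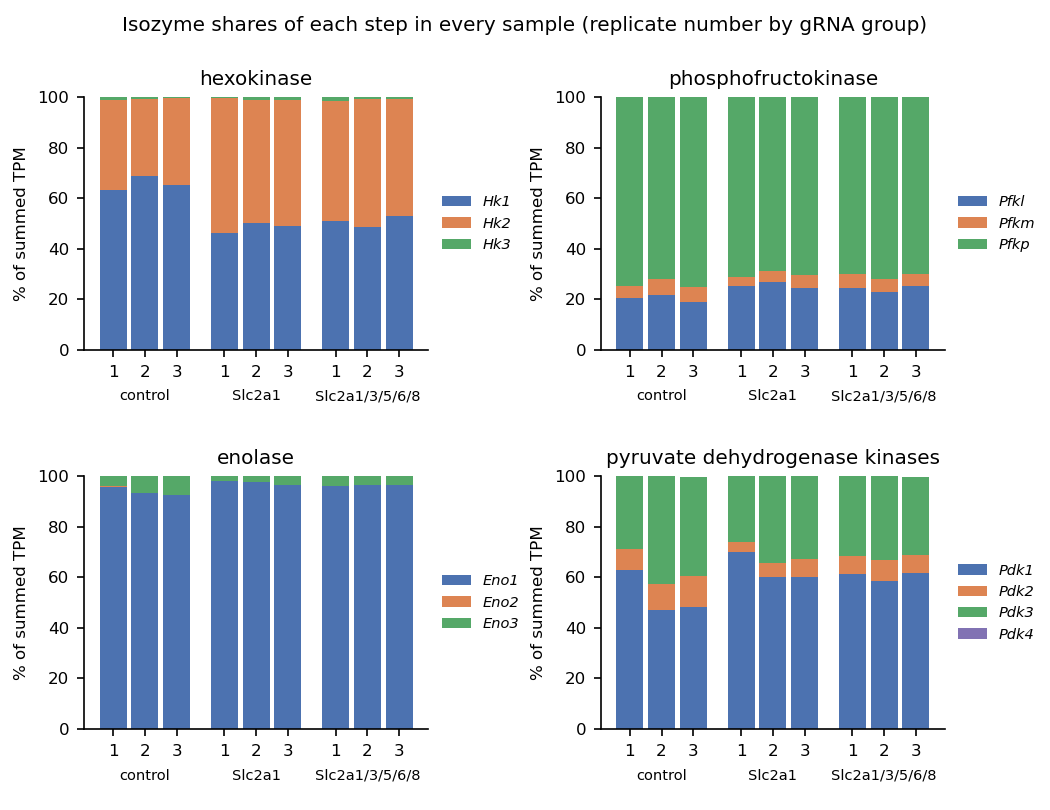
Share of each isozyme in the summed TPM of hexokinase, phosphofructokinase, enolase and the pyruvate dehydrogenase kinases in each of the 9 samples. *Hk2* (orange, hexokinase panel) takes 30.6 to 35.7% in control and 46.3 to 53.5% in the edited samples.

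Neighbouring pathways were read from a list of 53 further genes of the same steps and of glycogen, fructose, polyol and pyruvate metabolism, of which 35 were tested. With the *Slc2a1* gRNA 2 of them were higher and none lower, where 2.25% of all genes were higher and 2.39% lower. These were *Pgm1*, a phosphoglucomutase (log2 fold change 0.80, adjusted p = 0.0131), and glycogen synthase *Gys1* (0.56, adjusted p = 0.0258). With the 5 gRNAs 8 were higher and 3 lower, where 8.49% of all genes were higher and 7.44% lower, so that the lower ones are near the background. *Gys1* had the smallest p of them (0.79, adjusted p = 0.00169). The other higher genes were *Pgm1* (0.50), ADP-dependent glucokinase *Adpgk* (0.33), pyruvate carboxylase *Pcx* (0.49), *Dld*, the third enzyme of the pyruvate dehydrogenase complex (0.55), *H6pd*, the pentose phosphate dehydrogenase of the endoplasmic reticulum (0.43), ribokinase *Rbks* (1.19), and *Ppat*, which begins purine synthesis (0.56). The lower genes were muscle glycogen phosphorylase *Pygm* (-1.60), phosphomannose isomerase *Mpi* (-0.45) and aldose reductase *Akr1b3* (-0.39). Without the replicate block *Pgm1* (adjusted p = 0.0929), *Adpgk* (0.0716) and *Akr1b3* (0.0607) did not pass with the 5 gRNAs, and the other 8 did. None of the 35 passed between the edited groups in edgeR, and at an unadjusted p under 0.05 5 were higher and 2 lower, near the 10.4% and 8.68% of all genes.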

How the data were processed

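RNA of 5TGM1-Cas9 cells in 3 groups of 3 replicates was extracted with the NucleoSpin RNA XS kit, copied to cDNA from oligo-dT primers (SMART-seq V4) and sequenced as paired reads. The authors mapped reads with Salmon 1.5.1 (version from the submitters' processing notes) on Galaxy and deposited for each gene an estimated count and a TPM value. The annotation is not given in the sources used here. Samples were grouped by their labels. The members and lists were chosen with earlier results of these data known.

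The quasi-likelihood test of edgeR 4.0.16 (R 4.3.3) was run on the rounded estimated counts with TMM and the default filter on low counts, with all 9 samples in 1 fit, replicate number as a block, and adjustment over 13834 genes. The study's methods name DESeq2 for RNA-seq, and a figure legend states a paired test for transporter levels, which the block follows. Deviations of same-numbered samples correlated at 0.149, 0.111 and 0.215 between the *Slc2a1* gRNA and control groups. They correlated at 0.162, -0.065 and 0.127 between the *Slc2a1/3/5/6/8* gRNA and control groups, and at -0.107, -0.0341 and -0.0421 between the edited groups. Some unlike-numbered samples of the edited groups correlated at 0.192, 0.145 and 0.194. All these values are low and were not tested, so the numbers are not shown to pair samples in any comparison. Fold changes against control were printed for members past the threshold in any comparison and for expressed members of the same step, and per-sample values for those past it. *Gpi1*, *Aldoa*, *Pgd*, *G6pdx* and other members beyond this rule were named after their values were seen. Alternatives were DESeq2 1.42.0, total count normalization, a fit with no replicate block, no filter, only the 2 groups compared, limma 3.58.1 on log2(TPM + 1) with and without a filter and on log2(TPM + 0.1), other minimums of TPM, and leaving out each sample. Adding near-identical pseudogene copies (BLAST 2.17.0, at least 300 bases at 95% identity) to their member was chosen after seeing the data. The fit was tested on simulated data. Marker lists covered plasma cells, B cells, T cells, macrophages, stroma and erythroid cells. Gene positions are from GENCODE M21 on GRCm38, which held 49351 of the 53077 names, and upstream sequences are from RefSeq. Replicates are called biological by the study, and its labels do not say whether they were separate transductions.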

Additional observations from a re-analysis of the deposited data

How the results depend on the processing

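Each group had 3 replicates, and the number of calls moved with the processing. For the *Slc2a1* gRNA against control, 9 members and 642 of all genes passed. The count was 17 with only the 2 groups compared (14 higher, 3 lower, 2268 of all genes), 0 with limma on log2(TPM + 1), on log2(TPM + 0.1) and on log2(TPM + 1) without a filter (12, 11 and 14 at an unadjusted p under 0.05, and 4, 4 and 0 of all genes adjusted), 6 with no replicate block (534), 13 with DESeq2 (11 higher, 2 lower, 1161), and 0 to 14 when each sample was left out. For the *Slc2a1/3/5/6/8* gRNAs against control, 8 members and 2204 of all genes passed. The count was 3 with no replicate block (1885 of all genes), 5 with total count normalization (1963), 13 with no filter on low counts (2751), 10 with DESeq2 (7 higher, 3 lower, 2475), 0 with each of the 3 limma settings (7, 6 and 9 unadjusted, and 289, 74 and 53 of all genes adjusted), and 1 to 13 when each sample was left out. Between the edited groups 0 members and 319 of all genes passed, against 7 with DESeq2 (699), 8 with no filter (974), and 0 to 1 when each sample was left out. The cause of these shifts was not tested.

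The log2 fold changes of the 9 and 8 called members kept their sign in every setting that gave a value. Reversals were limited to members that did not pass. For the *Slc2a1* gRNA, *Hk1* was at -0.03 with total count normalization and at -0.11, -0.12 and -0.11 with limma (range -0.05 to 0.19 with a sample left out), and *Pfkp* at -0.05 and -0.04 in the same settings (-0.06 to 0.19). *Tigar* was at -0.02 with limma. *Pfkfb3* was at -0.05 with limma without a filter (-0.07 to 0.27). With a sample left out *Pfkfb2* ranged from -0.21 to 0.02, *Pdk3* from -0.15 to 0.04 and *Pdp1* from -0.11 to 0.07. For the 5 gRNAs, *Pdk3* was at 0.00 with no filter and ranged from -0.07 to 0.04. Total count normalization moved the median of all genes by -0.10 for the *Slc2a1* gRNA, and TPM with limma by -0.14. In control cells 29 members had at least 5 TPM, 36 at least 0.5 TPM, and 34 at least 1 TPM in every replicate.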

Other observations

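Near-identical processed copies take little of the level given to each enzyme. The tables hold 99 pseudogenes that match 8 of the members over at least 300 bases at 95% identity. The 85 copies of *Gapdh* together had 0.288% of its TPM. The exception is *Pgam1-ps2*, which had 0, 9.82 and 13.2 TPM in the control replicates, 40.4, 16.1 and 18.6 with the *Slc2a1* gRNA and 0, 17.6 and 15.7 with the 5 gRNAs, on average 6.2% of the TPM of *Pgam1*. Its 0 in control replicate 1 and in replicate 1 of the 5-gene group stands beside 238 and 198 TPM of *Pgam1* in those libraries, so the division of reads between this pair is uncertain. With copies added to their member, the counts of members called were 9, 8 and 0 in the 3 comparisons, as without them.

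Some members share exonic bases with another gene. *Pkm* shares 15.3% of its exonic bases with *Gm49759* on the same strand, which had a control mean of 5.34 TPM, and *G6pdx* shares 13.6% with *Ikbkg* on the other strand, which had 12 TPM. Reads in those stretches cannot be assigned to a gene from the deposited values.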
